A study of Mus musculus with 8 samples.

Results

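The genes examined carry symbols of subunits of respiratory complexes II, III, IV and V, or of cytochrome c, the small carrier that moves electrons from complex III to complex IV. They were chosen by symbol among protein-coding genes of GENCODE M21 (succinate dehydrogenase Sdha to Sdhd, the Uqcr genes, Cyc1, Cycs, the numbered Cox4 to Cox8 genes, the Atp5 genes, and mt-Co, mt-Atp and mt-Cytb), with 1 further cytochrome c oxidase gene left out by the rule and not analysed here. The rule found 52 genes among the 20781 of the counts table, 46 in the nucleus and 6 on the mitochondrial genome, and all 52 passed the filter on low counts. Complexes were assigned by symbol alone, and whether each gene encodes a subunit of its complex was not checked. Cox7b2, Cox8c and a second gene ID that carries the symbol Atp5o had no values to use and were not analysed here.

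Bulk RNA was sequenced from FAPs (fibro-adipogenic progenitors). These mesenchymal cells reside between muscle fibres and can become adipocytes or fibroblasts. Per the labels, wild-type male mice of strain C57BL/6 (C57BL/6J in the description of the whole series) gave the cells, from the uninjured tibialis anterior, gastrocnemius and quadriceps. The cells spent 48 h in culture, followed by 24 h in vehicle for 4 libraries and in melatonin, the hormone of the pineal gland, for the other 4. The labels give no other difference between the 2 groups. No dose is given in the sources used here, nor whether a replicate is 1 mouse or a pool, and the extraction text names a different muscle, longissimus dorsi. Replicates are called biological in the labels, and p-values measure only the spread between these libraries.

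The respiratory chain passes electrons to oxygen and stores the energy as a proton gradient across the inner mitochondrial membrane, which complex V uses to make ATP. Complex II takes electrons from succinate and is built from nuclear genes alone. Complexes III, IV and V each combine nuclear subunits with subunits made from the mitochondrial genome, so that their assembly draws on both genomes. In cells that become fat cells, mitochondrial content is known to grow along with lipid metabolism.

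Some of the sequence behind these measurements limits what a count can tell. The reading frames of mt-Atp8 and mt-Atp6, which encode the membrane subunits of complex V made inside the mitochondrion, overlap on the plus strand of the mitochondrial genome (GRCm38, chrM:7927-7969). The shared 43 bases are 21.1% of mt-Atp8 and 6.31% of mt-Atp6, and are shown because reads there cannot be given to 1 gene. The capitals mark the start codon of mt-Atp6 and the stop codon of mt-Atp8.
mt-Atp8 and mt-Atp6: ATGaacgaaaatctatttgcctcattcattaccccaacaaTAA

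For the nuclear genes, the 250 bases before the RefSeq start (GRCm38.p6) were searched on both strands for short cores of factors known to act on respiratory genes. Entries were found for 33 of the 46 nuclear genes (none for Atp5a1, Atp5f1, Atp5mpl, Atp5s, Cox4i1, Cox4i2, Cox6a2, Cox6c, Cyc1, Sdhc, Uqcrb, Uqcrc2 and Uqcrq). The ETS core CCGGAAG, which GABPA binds, was present in 8 of the 33 (24.2%), against 6.91% of 32851 windows of the same length. The NRF1 core TGCGCA stood in 6 (18.2%, against 6.43%), the ERR half-site AAGGTCA in 2 (6.06%, against 4.08%) and the YY1 core AAGATGG in 0 (against 4.49%). Of the genes that rose with melatonin, 4 of 19 held the ETS core and 5 of 19 the NRF1 core, and of those that did not pass, 4 of 14 and 1 of 14. These are letters in a window and not measured binding sites. In each complex the called gene with the smallest edgeR p among those with an entry was picked, which gave Sdhb, Uqcr11, Cox6a1 and Atp5b. The windows of Sdhb and Atp5b held none of these cores and are not printed. Those of Cox6a1 (minus strand, chr5:115348959-115349208) and Uqcr11 (minus strand, chr10:80406822-80407071) are shown with their cores in capitals. Other genes that rose also held a core. In Cox6a1 the capitals are the NRF1 core and then the ETS core read on the opposite strand, and in Uqcr11 the ETS core. Only exact copies of the listed letters were sought, so other forms of a site stay in small letters.
Cox6a1: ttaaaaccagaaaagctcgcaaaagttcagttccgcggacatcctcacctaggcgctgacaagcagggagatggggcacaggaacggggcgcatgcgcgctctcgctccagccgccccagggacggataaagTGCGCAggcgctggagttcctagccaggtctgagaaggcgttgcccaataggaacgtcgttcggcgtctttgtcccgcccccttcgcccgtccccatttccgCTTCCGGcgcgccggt
Uqcr11: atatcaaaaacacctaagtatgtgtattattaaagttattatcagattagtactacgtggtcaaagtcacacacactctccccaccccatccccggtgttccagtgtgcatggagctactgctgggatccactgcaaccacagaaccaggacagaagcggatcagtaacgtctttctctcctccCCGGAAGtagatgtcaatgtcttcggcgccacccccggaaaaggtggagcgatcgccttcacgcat

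Levels are given in CPM (read counts scaled to a common library size after TMM normalisation), and changes as log2 fold changes of melatonin over vehicle ± standard error from edgeR's quasi-likelihood test. Library totals were 45682034 to 52401153 counts with vehicle and 35584931 to 49769873 with melatonin, and the lowest count of any of the 52 genes in a library was 32. The markers of FAPs (Pdgfra, Ly6a, Cd34, Dcn, Pdgfrb and Dpt) were all present, with a summed level (for the marker sums alone, CPM by library total without TMM) of 2408 to 2571 CPM with vehicle and 1671 to 1953 with melatonin, and 3 of the 6 passed as lower. The adipocyte markers summed to 95.8 to 101.5 CPM with vehicle and 665.1 to 844.1 with melatonin, and of the 5 genes, the 4 that had values were all higher. Of the brown adipocyte markers 1 of 4 had values and did not pass (14.23 to 19.01 CPM and 12.93 to 26.64). Myogenic markers (7 of 9 had values, 1 higher) summed to 98.07 to 139 with vehicle and 82.87 to 302.4 with melatonin, macrophage markers (1 of 5 lower, where 18.5% of all tested genes were) to 99.9 to 146.1 and 60.59 to 136.3, and endothelial markers (1 of 5 higher, where 18.1% were) to 27.17 to 32.98 and 47.97 to 57.46. The genes within a sum differed, as their mean CPM with vehicle and then melatonin shows. Of the endothelial markers, Tek passed (17.1 and 35.3). Pecam1 (3.53 and 4.80), Cdh5 (7.90 and 8.79) and Kdr (0.879 and 0.933) did not, nor did Emcn, which was lower with melatonin (1.42 and 0.741). Of the FAP markers, Dcn (911 and 351), Ly6a (336 and 224) and Dpt (108 and 83.6) passed as lower. Pdgfra, Cd34 and Pdgfrb did not pass. Of the myogenic markers, Acta1 passed as higher (50.6 and 110), with 127, 159, 108 and 47.9 CPM in melatonin replicates 1 to 4. Myod1, Myog, Des and Myh1 were higher and Ckm and Myh4 lower, none of which passed. Of the macrophage markers, Csf1r passed as lower (29.0 and 17.2). Cd68 was higher (23.1 and 34.0) and Ptprc, Adgre1 and Itgam lower, none of which passed. In bulk RNA, more cells of a type and more RNA per cell cannot be told apart. The part of these markers in the results below was not tested.

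With melatonin 49 of the 52 genes of complexes II to V and cytochrome c had a positive log2 fold change, most of them modest. Of the 52 genes, 31 rose and 1 fell at an edgeR adjusted p under 0.05, where 36.5% of all 16565 tested genes were called, 18.1% higher and 18.5% lower. The 6 genes of the mitochondrial genome all rose, with a median log2 fold change of 0.75. Of the 46 nuclear genes, 25 rose (54.3%), 1 fell and 20 did not pass, with a median of 0.30 beside 0.01 for all tested genes. The scaling used holds the median of all tested genes near 0. With library totals alone the medians were 0.45 for the nuclear genes and 0.17 for all tested genes. In 28 genes all 4 melatonin libraries lay above all 4 vehicle libraries, and in 1 gene below, where 18.5% and 19.2% of all tested genes did so. The count of nuclear genes that rose ranged from 16, without vehicle replicate 1, to 30 over the fits that left out 1 library. The call held without each library in turn for 23 of the 32 called genes.

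**Figure D1:**
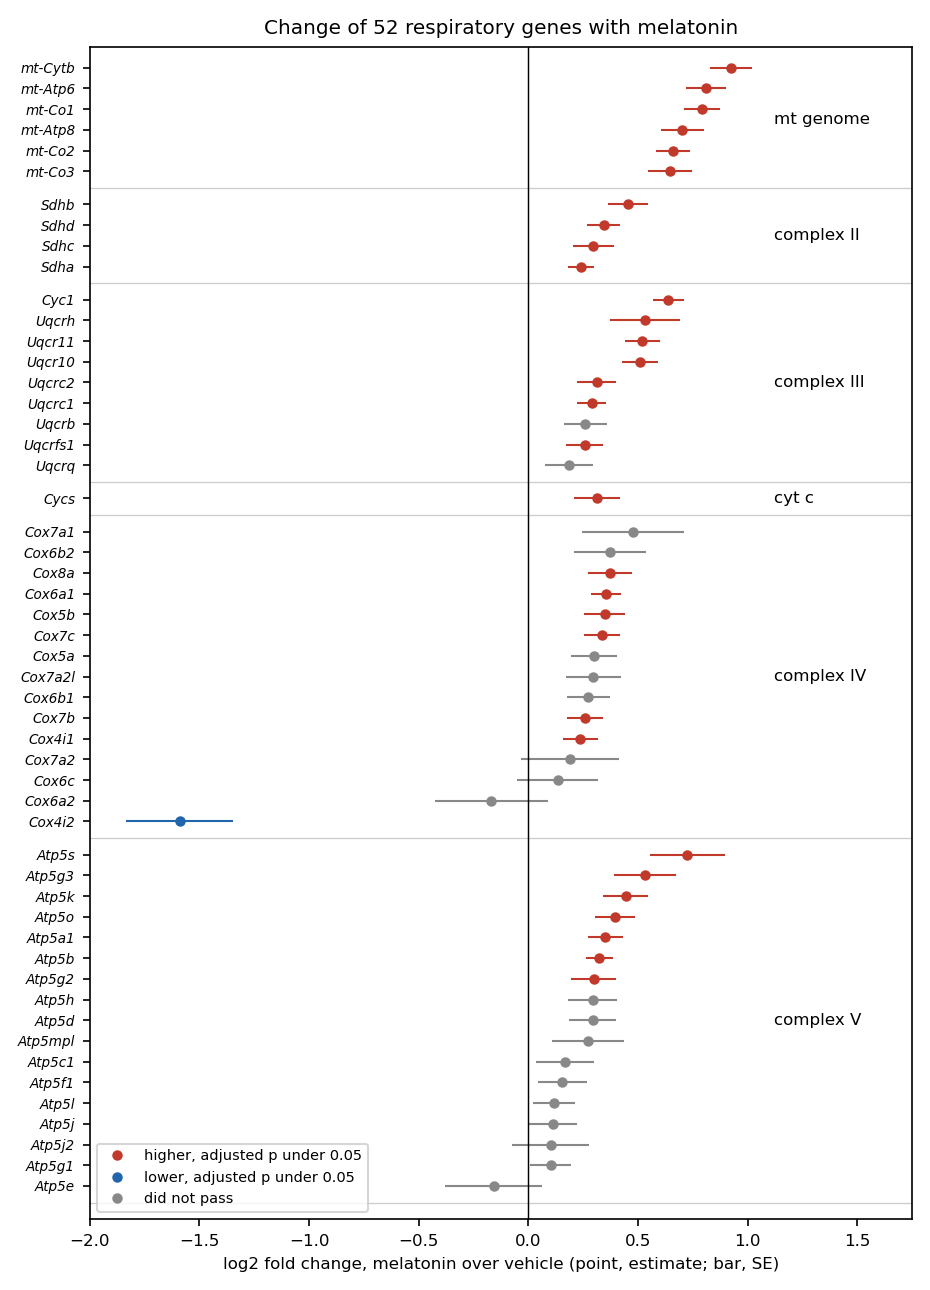
Log2 fold change of melatonin over vehicle for each of the 52 genes (points) with its standard error (bars), grouped by complex, with the 6 genes of the mitochondrial genome (mt genome) at the top. Those 6 lie between 0.65 and 0.92, most nuclear genes between 0.1 and 0.65, and Cox4i2 stands alone at -1.59.

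Among the subunits made by the mitochondrial genome, mt-Cytb encodes cytochrome b, the membrane core of complex III. It measured 1533.5, 1249, 1239.5 and 1295 CPM in vehicle replicates 1 to 4 and 2312, 2827, 2315 and 2635 in melatonin replicates 1 to 4. The lowest melatonin library lay well above the highest vehicle library, replicate 1, and the log2 fold change was 0.92 ± 0.096 (edgeR adjusted p = 6.2e-05).

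The 3 core subunits of complex IV followed. mt-Co1, which holds the haem and copper site where oxygen is reduced measured 5534, 4924, 4749 and 4804 CPM with vehicle and 8229, 9523, 7899.7 and 8992.5 with melatonin (0.79 ± 0.082, edgeR adjusted p = 6.2e-05). mt-Co2, which receives electrons from cytochrome c, measured 817, 772, 727 and 743 CPM with vehicle and 1171, 1286.5, 1074.5 and 1299 with melatonin (0.66 ± 0.077). mt-Co3, the third core subunit, measured 1064, 1013, 917 and 972 CPM with vehicle and 1414, 1664, 1338 and 1791 with melatonin (0.65 ± 0.099). In none of the 3 did the groups overlap, and vehicle replicate 1 was the highest vehicle library in each.

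Complex V takes 2 membrane subunits from the mitochondrion. mt-Atp6, part of the proton channel, measured 148, 127, 124 and 128 CPM with vehicle and 217, 254, 204 and 251 with melatonin, a log2 fold change of 0.81 ± 0.092. mt-Atp8 measured 159, 129, 124 and 131 CPM with vehicle and 225, 251, 208 and 199.7 with melatonin, a log2 fold change of 0.70 ± 0.099. Groups did not overlap in either gene. Melatonin replicate 4 was the lowest melatonin library for mt-Atp8 and close to the highest for mt-Atp6, although the genes share the bases printed above.

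Complex II oxidises succinate and links the citric acid cycle to the chain. All 4 of its genes rose. Sdhb, the iron-sulphur subunit, measured 72.8, 88, 84 and 79.4 CPM with vehicle and 111, 107, 98.5 and 128 with melatonin. Each melatonin library was above each vehicle library, with a log2 fold change of 0.46 ± 0.091 (edgeR adjusted p = 0.0032). Sdhd, a membrane anchor, measured 89.1, 98.9, 98.2 and 92.1 CPM and then 117, 114, 113 and 135 (0.34 ± 0.074). Sdha, the flavoprotein that binds succinate, measured 196, 205, 219 and 210.4 CPM and then 241, 246, 237 and 258 (0.24 ± 0.06). Neither gene had overlapping groups. The other anchor gene, Sdhc, rose by 0.30 ± 0.094 with groups that overlapped, since vehicle replicate 2 (137 CPM) lay above melatonin replicate 3 (135 CPM), and its call was lost without vehicle replicate 1, 3 or 4 (edgeR adjusted p of 0.065 to 0.09, and 0.0022 to 0.09 over all alternatives).

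In complex III, 7 of 9 nuclear genes rose and none fell (0 also at an unadjusted p under 0.05, with DESeq2 and with limma-voom). Cyc1, cytochrome c1, which hands electrons to cytochrome c, measured 87.5, 100.5, 100.5 and 94.9 CPM with vehicle and 149, 142, 145 and 161 with melatonin. The groups were far apart and the log2 fold change, 0.64 ± 0.069, was the largest of complexes II and III outside the mitochondrial genome (edgeR adjusted p = 8.4e-05). The small subunit gene Uqcr11 measured 63.5, 73.8, 62.4 and 61.9 CPM and then 99.3, 97.4, 84.8 and 93.7 (0.52 ± 0.08). Another small subunit gene, Uqcr10, measured 64.9, 72.4, 61.3 and 59.5 CPM and then 88.4, 94.9, 84.6 and 99.8 (0.51 ± 0.082). In both, each melatonin library exceeded the vehicle libraries, of which replicate 2 was the highest.

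The large core proteins of complex III, Uqcrc1 (0.29 ± 0.065) and Uqcrc2 (0.31 ± 0.09), rose less than Cyc1, although the difference between genes was not tested. Uqcrfs1, the Rieske iron-sulphur protein, rose by 0.26 ± 0.085. Uqcrh, the hinge subunit, measured 71.8, 80.7, 76.7 and 73.5 CPM with vehicle and 95, 103, 87.2 and 153 with melatonin, so that its change of 0.53 ± 0.16 was drawn up by melatonin replicate 4. Without that library it was 0.34 and still passed, and it lost the call without vehicle replicate 1, 3 or 4 (edgeR adjusted p of 0.056 to 0.068, and 0.0043 to 0.068 over all alternatives). The call of Uqcrc2 was lost without vehicle replicate 1 (edgeR adjusted p = 0.062, range 0.0013 to 0.062), and that of Uqcrfs1 without vehicle replicate 1, 3 or 4 or melatonin replicate 1 (0.058 to 0.098, range 0.0021 to 0.098). Uqcrb (0.26 ± 0.099) and Uqcrq (0.19 ± 0.11) did not pass, though Uqcrb did without melatonin replicate 3 (edgeR adjusted p = 0.023, range 0.0052 to 0.15). Without melatonin replicate 4 the change of Uqcrq was 0.11.

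Cycs, the gene of somatic cytochrome c, measured 48.1, 60.2, 61 and 47.8 CPM with vehicle and 64, 67.4, 62.5 and 75.9 with melatonin. The groups just failed to overlap, with melatonin replicate 3 close above vehicle replicate 3. The log2 fold change was 0.31 ± 0.10 (edgeR adjusted p = 0.04), and the call was lost without vehicle replicate 1 or 4 or melatonin replicate 2 or 4 (edgeR adjusted p of 0.055 to 0.11, and 0.0028 to 0.11 over all alternatives).

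Complex IV, cytochrome c oxidase, reduces oxygen to water. Of its 15 nuclear genes 6 rose, 1 fell and 8 did not pass. Cox6a1, the widely expressed form of subunit VIa, measured 287, 308, 291 and 276 CPM with vehicle and 366, 388, 337 and 396 with melatonin, without overlap (0.35 ± 0.069, edgeR adjusted p = 0.0029). Cox7c measured 104.5, 117, 109 and 101 CPM and then 139.5, 135, 118 and 151 (0.34 ± 0.084), where melatonin replicate 3 lay just above vehicle replicate 2. Cox5b (0.35 ± 0.094) and Cox8a (0.37 ± 0.10), subunits that surround the core, rose with them, as did Cox7b (0.26 ± 0.082). Groups overlapped in Cox5b. Cox8a lost its call without vehicle replicate 1 or 4 (edgeR adjusted p = 0.053 each, range 0.0015 to 0.053), and Cox7b without vehicle replicate 1, 3 or 4 or melatonin replicate 2 (0.052 to 0.084, range 0.0023 to 0.084).

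The 1 gene that fell was Cox4i2, the alternative form of subunit IV, which is known to replace Cox4i1 under low oxygen in lung and some other cells. The gene lies on chromosome 2 (GRCm38, chr2:152754173-152765037, plus strand). It measured 2.56, 2.94, 2.43 and 2.13 CPM with vehicle and 0.62, 1.16, 0.597 and 0.992 with melatonin, from 471 counts in all vehicle libraries to 150 in all melatonin libraries. Every melatonin library was below every vehicle library, and the log2 fold change was -1.59 ± 0.24 (edgeR adjusted p = 7e-04), so the level was 3.01-fold lower. The direction was the same in all 16 alternatives that tested the gene, with log2 fold changes of -1.77 to -1.43. Its common partner Cox4i1 measured 242, 288, 262 and 253.5 CPM with vehicle and 304, 306, 279.5 and 343 with melatonin. That gene rose by 0.24 ± 0.081 with overlapping groups, and its call (edgeR adjusted p = 0.044) was lost in 6 of the 8 fits that left out 1 library, all but those without vehicle replicate 2 or melatonin replicate 3 (0.052 to 0.12, range over all alternatives 0.002 to 0.12).

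Expressed per kilobase of exon, Cox4i2 made up 2.04%, 1.97%, 1.79% and 1.62% of the summed level of the subunit IV genes in the vehicle libraries and 0.399%, 0.74%, 0.419% and 0.565% with melatonin. The mean share thus went from 1.86% ± 0.186 to 0.531% ± 0.158 (SD, n = 4), with no overlap. The share depends on the length used, and with that of 1 principal transcript the means were 0.993% and 0.282%. The ratio of the 2 genes does not depend on how libraries are scaled.

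Other partner forms of complex IV subunits did not pass. Cox6a2, the heart and muscle form of subunit VIa, measured 2.41, 2.45, 1.99 and 2.65 CPM with vehicle and 2.11, 3.33, 1.61 and 1.42 with melatonin, overlapping widely (-0.17 ± 0.26). Cox7a1, the heart and muscle form of subunit VIIa, measured 1.29, 1.34, 0.789 and 1.4 CPM and then 1.78, 1.21, 1.83 and 1.9 (0.48 ± 0.23, edgeR adjusted p = 0.14). Cox6b2, the testis form of subunit VIb, measured 3.7, 3.82, 3.42 and 4.67 CPM and then 4.51, 5.06, 4.2 and 6.52 (0.37 ± 0.17). These forms stayed minor next to their partners, at 0.582% ± 0.217 (Cox6a2), 4.14% ± 0.994 (Cox7a1) and 2.29% ± 0.188 (Cox6b2) of the level per kilobase of each pair with melatonin (SD, n = 4). With the length of 1 principal transcript in place of all exons, the share of Cox6b2 was 3.74%. Without melatonin replicate 4 the log2 fold change of Cox6a2 was -0.02 and that of Cox6b2 0.24.

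Of the widely expressed partners, Cox6b1 measured 104, 126, 112 and 112 CPM with vehicle and 132, 131, 123 and 163 with melatonin (0.27 ± 0.097, edgeR adjusted p = 0.051), and passed without vehicle replicate 2 or melatonin replicate 3 (0.037 and 0.029, range over all alternatives 0.004 to 0.13). Cox7a2 measured 47.8, 71.4, 68.7 and 63.6 CPM with vehicle and 59.9, 56.9, 61.9 and 108 with melatonin. Melatonin replicate 4 alone lay above the vehicle range there, and the log2 fold change of 0.19 ± 0.22 became -0.07 without it. Cox7a2l, a relative of subunit VIIa, measured 176, 203, 201 and 190.2 CPM and then 219, 215, 204 and 308. All its melatonin libraries lay above the vehicle libraries, the closest by little, yet it did not pass (0.30 ± 0.12, edgeR adjusted p = 0.09). Without melatonin replicate 3 it did (adjusted p = 0.047, range over all alternatives 0.011 to 0.2), and without melatonin replicate 4 its change was 0.16. Cox5a (0.30 ± 0.11) and Cox6c (0.13 ± 0.18) did not pass either, while Cox5a did without melatonin replicate 1 (edgeR adjusted p = 0.012, range 0.0056 to 0.13). Without melatonin replicate 4 the change of Cox6c was -0.05.

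**Figure D2:**
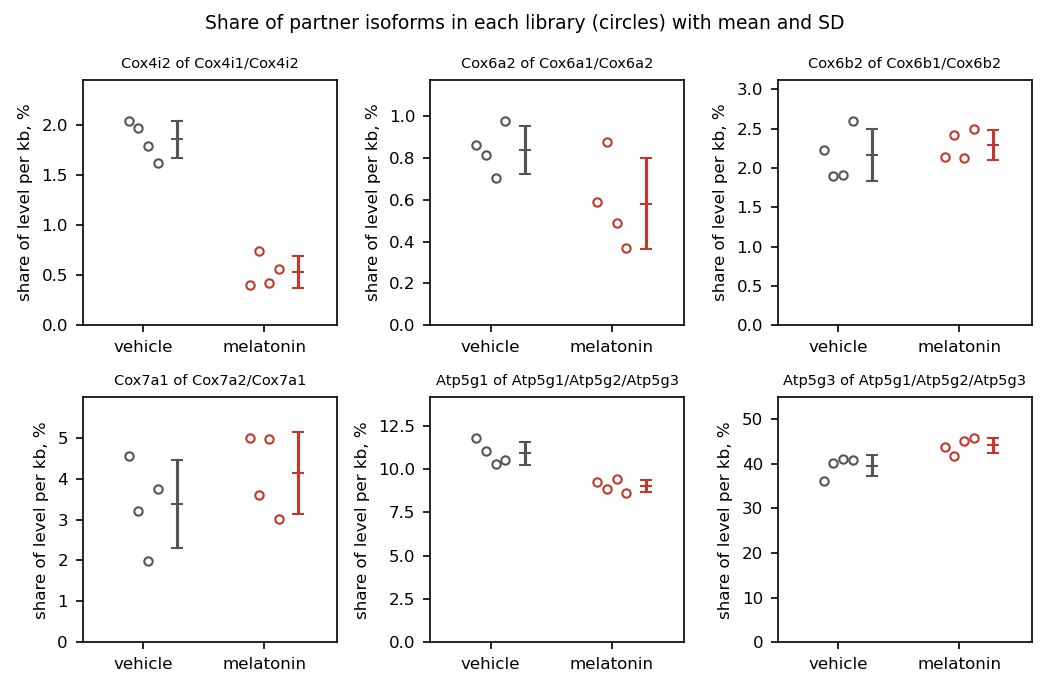
Share of the level per kilobase of exon held by 6 partner isoforms within their set, in each library (circles, replicates 1 to 4 from left to right) with mean and SD for vehicle (grey) and melatonin (red). Cox4i2 fell from a mean of 1.86% to 0.531% of the subunit IV pair without overlap, while Cox6a2, Cox6b2 and Cox7a1 overlapped between groups.

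Complex V, the ATP synthase, had 7 of 17 nuclear genes higher, 10 that did not pass and 0 lower (0 also at an unadjusted p under 0.05, with DESeq2 and with limma-voom). Atp5b, the catalytic beta subunit, measured 754, 825, 824 and 802 CPM with vehicle and 988, 1014, 961 and 1050.1 with melatonin. The libraries were well apart, and the log2 fold change was 0.32 ± 0.06 (edgeR adjusted p = 0.0021). Atp5a1, the alpha subunit, measured 440.0, 486, 471 and 475 CPM and then 580.1, 562, 558 and 688 (0.35 ± 0.079). Atp5o, the stalk protein that confers oligomycin sensitivity, measured 95.6, 114, 101 and 118 CPM and then 133, 149, 129 and 154 (0.40 ± 0.089). None of these had overlapping groups.

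The c subunit, which forms the rotating ring in the membrane, is encoded by 3 genes. Atp5g1 measured 91.1, 104, 92.5 and 90.7 CPM with vehicle and 100.1, 92.5, 92.6 and 121 with melatonin and did not pass (0.10 ± 0.094). Atp5g2 measured 138, 156, 149 and 143 CPM and then 174, 175, 153 and 219 (0.30 ± 0.10, edgeR adjusted p = 0.046). Its groups overlapped and it lost the call in 6 of the 8 fits that left out 1 library, all but those without melatonin replicate 3 or 4 (edgeR adjusted p of 0.058 to 0.12, range over all alternatives 0.0038 to 0.12). Atp5g3 measured 124, 168, 164 and 157 CPM and then 210.4, 194, 197 and 285, without overlap (0.53 ± 0.14, edgeR adjusted p = 0.015). Within the 3 genes, the share of Atp5g3 per kilobase of exon went from 39.5% ± 2.37 to 44.1% ± 1.74, and that of Atp5g1 from 10.9% ± 0.663 to 9.03% ± 0.361 (SD, n = 4), both without overlap. With principal transcript lengths the share of Atp5g1 was 4.66% with vehicle and 3.77% with melatonin. These low shares depend on the long annotated length of Atp5g1. Its principal transcript has 4715 bases, against 731 for Atp5g2 and 723 for Atp5g3. For all exons the lengths are 4912, 1675 and 2181 bases. Without melatonin replicate 4 the log2 fold change of Atp5g1 was 0.02. Their transcripts share identical runs of at most 21 bases.

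Among the other genes placed in complex V by symbol, Atp5k (0.44 ± 0.10), the membrane subunit e, rose. So did Atp5s (0.73 ± 0.17), named as coupling factor B, at 3.66 ± 0.404 CPM with vehicle and 6.07 ± 1.36 with melatonin (SD, n = 4). The genes of the central stalk did not pass, namely Atp5c1 (0.17 ± 0.13), Atp5d (0.29 ± 0.11) and Atp5e (-0.16 ± 0.22), nor did the outer stalk genes Atp5f1 (0.16 ± 0.11), Atp5h (0.29 ± 0.11) and Atp5j (0.11 ± 0.11). The membrane subunit genes Atp5j2 (0.10 ± 0.18), Atp5l (0.12 ± 0.096) and Atp5mpl (0.27 ± 0.16) did not pass either. Atp5d passed without vehicle replicate 2 or melatonin replicate 3 (edgeR adjusted p of 0.04 and 0.034, range 0.0038 to 0.12), and Atp5h without melatonin replicate 3 (0.027, range 0.0064 to 0.15). Without melatonin replicate 4 the log2 fold change was 0.04 for Atp5c1, -0.38 for Atp5e, 0.09 for Atp5f1, 0.18 for Atp5h, 0.0012 for Atp5j, -0.04 for Atp5j2 and 0.14 for Atp5mpl, and none of them passed. Atp5e measured 67.5, 108, 108 and 96.8 CPM with vehicle and 79, 67.4, 70.6 and 123 with melatonin, so that 1 library of each group lay apart from its other 3 and in opposite directions.

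**Figure D3:**
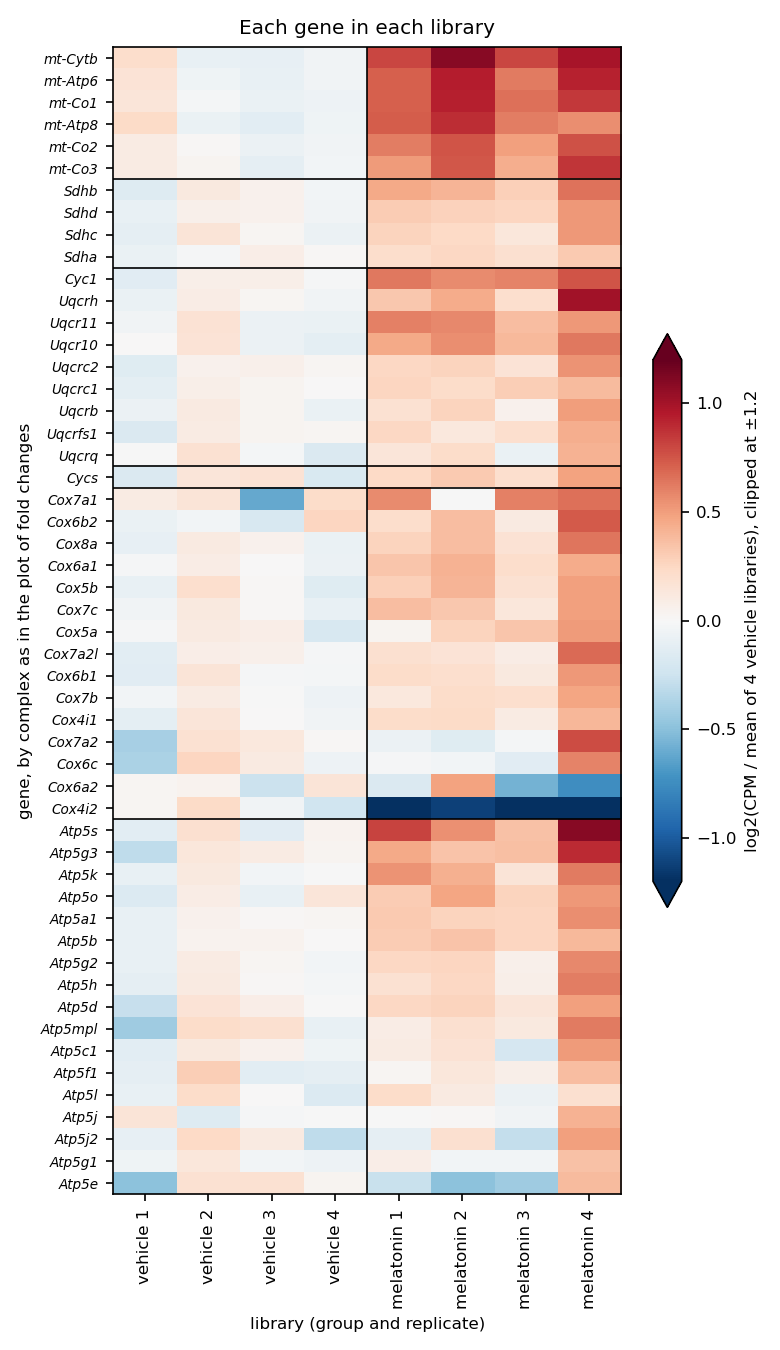
Log2 ratio of the CPM of each of the 52 genes in each library to the mean of the 4 vehicle libraries (red higher, blue lower, colours clipped), with genes in the order of the plot of fold changes and lines between complexes. Melatonin replicate 4 is the darkest red column for nuclear genes, and Cox4i2 is the 1 gene that is blue in all 4 melatonin libraries and lighter in every vehicle library.

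Nuclear reads were also summed over the genes of each complex, and differences between complexes were not tested. Such a sum follows its most abundant genes and is not a change shared by all of them. In complex V, Atp5b (801) and Atp5a1 (468) stood in a mean nuclear sum of 2716 CPM with vehicle. In complex IV, mt-Co1 held 5003 of a mean mitochondrial sum of 6760 CPM with vehicle. The nuclear sum was 472, 529, 526 and 499 CPM with vehicle and 617, 613, 584 and 697 with melatonin in complex II, a ratio of means of 1.24. The ratio was 1.3 in complex III, 1.23 in complex IV and 1.22 in complex V. All 4 melatonin sums lay above all 4 vehicle sums in each complex, by the least in complex IV (1774 CPM in melatonin replicate 3 against 1761 in vehicle replicate 2). Subunits of the mitochondrial genome showed larger ratios, 1.90 in complex III, 1.69 in complex IV and 1.69 in complex V.

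Reads of the mitochondrial subunits were also taken per read of the nuclear subunits, a ratio that scaling does not touch, and no test was run on it. In complex IV it was 4.94, 3.81, 3.88 and 4.22 with vehicle and 5.75, 6.42, 5.81 and 5.18 with melatonin. In complex III it was 2.05, 1.46, 1.55 and 1.68 with vehicle and 2.3, 2.8, 2.44 and 2.25 with melatonin. The groups did not overlap in complexes III and IV. In complex V the ratio was 0.0878 to 0.124 with vehicle and 0.118 to 0.157 with melatonin, and the groups overlapped. Vehicle replicate 1 had the highest vehicle ratio and melatonin replicate 4 the lowest melatonin ratio in all 3 complexes. Over the whole mitochondrial genome, counts were 1.05% to 1.3% of the library with vehicle and 2.09% to 2.44% with melatonin.

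**Figure D4:**
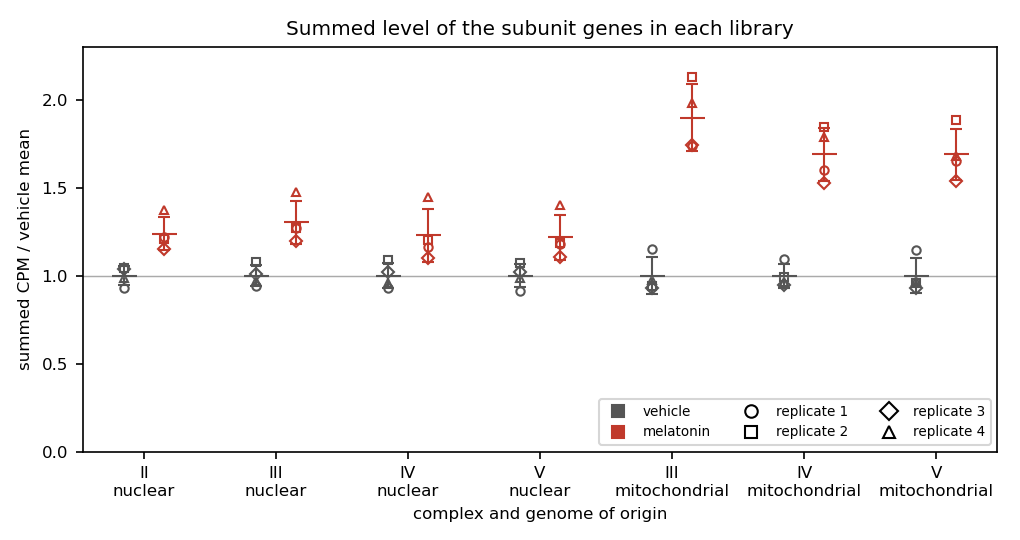
Summed CPM of the subunit genes of each complex, nuclear and mitochondrial, in each library (symbols by replicate) over the mean of the vehicle libraries, with mean and SD for vehicle (grey) and melatonin (red). Means with melatonin are 1.22 to 1.3 for the nuclear sums and 1.69 to 1.90 for the mitochondrial sums, and melatonin replicate 4 (triangle) is the highest library for each nuclear sum.

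The size of the nuclear changes depended in part on melatonin replicate 4. Of the 46 nuclear genes, 44 were higher there than the mean of the other 3 melatonin libraries, by a median of 0.29 on the log2 scale. The median was 0.11 for the 6 mitochondrial genes and -0.01 for all tested genes, which the scaling holds near 0. That library was the highest of all 8 in 42 of the 46 nuclear genes. Over all genes, the chi-square per gene, which measures how far 2 libraries differ, was 23.46 to 32.19 between melatonin replicates 1 to 3. Melatonin replicate 4 had 58.95 to 74.4 with them. It also held the fewest counts (35584931) and the lowest summed level of the melatonin libraries in all 6 marker lists (1671 CPM for FAP, 665.1 for adipocyte, 12.93 for brown adipocyte, 82.87 for myogenic, 60.59 for macrophage and 47.97 for endothelial markers). Not every marker followed its sum. Of the melatonin libraries, replicate 4 was the lowest for Pdgfra (354 CPM after TMM) and Pdgfrb (450 CPM). For Ly6a (245 CPM) and Cd34 (132 CPM) it was the highest. The brown adipocyte sum was 1 gene, Dio2. Ribosomal protein genes took 5.82% of counts in melatonin replicate 4 against 4.24% to 4.48% in the other melatonin libraries. For the nuclear genes examined, vehicle replicate 1 ran the other way. It was lower than the mean of the other vehicle libraries in 41 of the 46 genes, with a median difference of -0.12. The part of depth, of these markers or of ribosomal protein reads in this was not tested. Leaving out melatonin replicate 4 called 38.9% of all tested genes, against 36.5% with all libraries and 30.3% to 33.6% with another library left out. Without melatonin replicate 4 the median change of the nuclear genes was 0.23, and 30 of the 32 called genes kept their call, with Cox4i1 and Cycs lost. The nuclear genes whose direction turned without that library were Cox7a2, Cox6c and Atp5j2, none of which had passed.

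**Figure D5:**
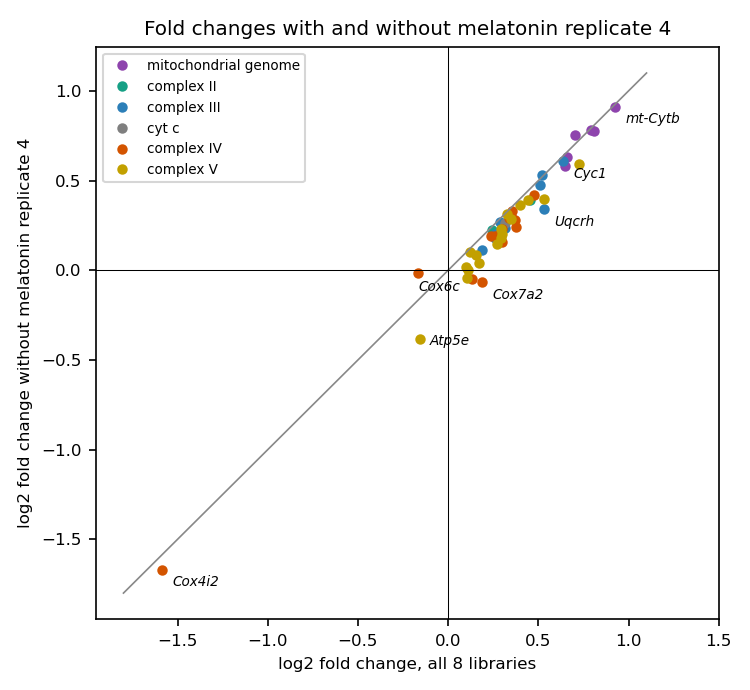
Log2 fold change of each of the 52 genes without melatonin replicate 4 (y axis) against that with all 8 libraries (x axis), coloured by complex, with the line of equality. Of the 46 nuclear genes 44 lie below the line, Cox7a2 and Cox6c drop below 0, and Cox4i2 goes from -1.59 to -1.67.

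The counts of the lists that follow stand beside 18.1% of all tested genes called higher and 18.5% lower, and differences between lists were not tested. For complex II assembly, 1 of 4 genes rose, Sdhaf1 (0.59), a factor for the iron-sulphur subunit. Sdhaf2, which helps attach the flavin to Sdha, did not pass (0.21). For complex III, 3 of 6 rose and 1 fell. Bcs1l, the chaperone that inserts the Rieske protein, went from 9.65 ± 0.592 to 18 ± 1.31 CPM (SD, n = 4, edgeR adjusted p = 4.3e-05) and Lyrm7, which stabilises that protein before insertion, from 1.31 ± 0.204 to 2.54 ± 0.275 CPM. Uqcc3 rose (0.44) and Ttc19 fell (-0.30).

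For complex IV, 7 of 23 tested assembly genes rose and 2 fell, with a median of 0.23 (Pet117 was not analysed here). Cox19, a copper-linked factor of the intermembrane space, went from 22.4 ± 2.18 to 33.2 ± 3.89 CPM. Higd1a, a hypoxia-inducible protein known to bind complex IV, fell from 107 ± 8.09 to 64 ± 13.7 CPM, and Cox18, which inserts part of mt-Co2 in the membrane, fell by 0.56 on the log2 scale. For complex V, 3 of 5 rose, among them the F1 assembly factor Atpaf2 (0.42) and Atpif1 (0.33), the inhibitor that blocks ATP hydrolysis by the enzyme.

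Among 15 tested genes that transcribe, process or maintain the mitochondrial genome, 7 rose and 1 fell, with a median of 0.31 (Fastkd4 was not analysed here). The RNA-stabilising gene Lrpprc went from 35 ± 2.7 to 45 ± 1.32 CPM (SD, n = 4, edgeR adjusted p = 0.0031), while its partner Slirp fell from 13.5 ± 1.74 to 10.6 ± 0.707 CPM. The helicase gene Twnk rose by 0.31 and the polymerase gene Polrmt by 0.32. Tfam, which packages the genome, did not pass (0.17).

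Of 9 nuclear regulators of respiratory genes, 3 rose and 3 fell. The coactivator gene Ppargc1b went from 0.439 ± 0.0635 to 2.34 ± 0.885 CPM (2.41, edgeR adjusted p = 3e-04) and Ppargc1a from 1.08 ± 0.284 to 3.15 ± 0.617 CPM (1.54, edgeR adjusted p = 0.00047), both from low levels. Their partner receptor gene Esrra rose by 0.26. Perm1 (-1.35), Gabpb1 (-0.44) and Yy1 (-0.35) fell, while the genes of the factors Nrf1 (0.00) and Gabpa (-0.10) did not pass.

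For comparison, genes with complex I symbols (numbered Ndufa, Ndufb, Ndufc, Ndufs and Ndufv, Ndufab1 and mt-Nd) were examined with the same fit. They had 7 of 7 mitochondrial genes higher (median 0.82) and 14 of 38 nuclear genes higher and 1 lower (median 0.21). They were chosen by symbol alone, and whether each is a subunit of complex I was not checked. The difference between these genes and those of complexes II to V was not tested.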

How the data were processed

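The authors deposited 1 table of whole-number counts per Ensembl gene for 8 libraries. HISAT2 (version 2.0), StringTie (1.3.3b), Trimmomatic (0.36), DESeq2 (1.12.4), FastQC (0.11.2) and bedtools (2.26.0) are named, with build mm10, per the submitters' processing notes. Which program counted the reads, on which annotation and whether by strand, is not given in the sources used here. For 14 genes examined, the span, introns included, overlaps that of a gene on the other strand. They are Atp5a1, Atp5d, Atp5f1, Atp5j, Atp5l, Atp5o, Cox4i1, Cox5a, Cox6a2, Cox6c, Uqcrb, Uqcrc2, Uqcrh and mt-Co1. Whether reads of the 2 genes were told apart is not known, and the exon bases they share were not measured. Columns prefixed as control were read as vehicle, the only other group. Every gene in the table has at least 11 counts in total.

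Symbols and exon lengths came from GENCODE M21 (GRCm38), which held 20720 of the 20781 IDs. After filterByExpr, 16565 genes were fitted with edgeR 4.0.16 (TMM factors, robust quasi-likelihood, group as the only term), with Benjamini-Hochberg adjustment over all of them and a threshold of 0.05. The standard error is the log2 fold change over the square root of F. Levels of different genes are compared per kilobase of the union of exons. The steps were tested on simulated data. All replicate pairs differed beyond sampling noise (chi-square per gene 23.5 to 74.4). Pairs with melatonin replicate 4 had the highest values, 58.95 to 74.4. Pairs of vehicle libraries had 29.04 to 41.24 and pairs of melatonin replicates 1 to 3 had 23.46 to 32.19.

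The genes and lists were chosen with earlier results of these data known. Values in every library are given for the genes with the 3 smallest p of each complex, the mitochondrial genes and partner isoforms. For the lists of other roles, means or log2 fold changes, not values in every library, are given for the 2 genes with the smallest p, and for marker lists summed levels in their place. Other genes named were chosen after their values were seen. Alternatives were DESeq2 1.42.0, limma-voom 3.58.1, other scalings, filters and thresholds, a replicate block and each library left out.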

Additional observations from a re-analysis of the deposited data

Results flagged for a closer look

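Of 116 groups of 4 libraries examined (each of the 52 genes and 6 summed levels, in each treatment), 10 had 1 library far from the other 3, where chance alone gives about 1 in 20. In 6 of them that library was melatonin replicate 4, and it was high in each. It measured 687.7 CPM for Atp5a1 (others 558 to 580.1), 68.7 for Atp5j (50.1 to 52.1), 132.8 for Cox6c (80.2 to 87.2), 108.4 for Cox7a2 (56.9 to 61.9), 307.5 for Cox7a2l (204 to 219) and 135.3 for Sdhd (113 to 117). Atp5a1 and Sdhd passed as higher also without that library. Vehicle replicate 2 was high for Atp5f1 (126.2 CPM, others 94.5 to 95.4), Atp5g1 (104 CPM, others 90.7 to 92.5) and Uqcr11 (73.8 CPM, others 61.9 to 63.5). Vehicle replicate 1 was high for mt-Atp6 (148.4 CPM, others 124 to 128). No cause of these values was tested.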

How the results depend on the processing

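The 6 mitochondrial genes rose under all 17 alternatives, and the median changes of both groups of genes were positive under the 16 that gave one. Of the 32 calls, 31 were kept with limma-voom, 32 with DESeq2 and 26 with the replicate number as a block, which left 19 nuclear genes higher and ended the calls of Atp5g2, Cox4i1, Cox7b, Cycs, Sdhc and Uqcrfs1. The numbers are not shown to pair the libraries, since the deviations of same-numbered libraries correlated at -0.046 to 0.035 and no vehicle library correlated best with its own number. Library totals alone shifted the median of all genes from 0.01 to 0.17, gave medians of 0.45 for nuclear and 0.90 for mitochondrial genes, and called 5099 of all genes higher (69.5% of calls against 49.4%) and 37 nuclear genes. There Atp5e was at 0.0015. A threshold of 0.01 left 12 nuclear genes and 1754 of all genes higher. With a mean of at least 5 CPM 0 nuclear genes were lower, since Cox4i2 was not tested. Without 1 library each, 16 to 30 nuclear genes were higher, and log2 fold changes ran from -0.044 to 0.23 for Atp5j2, -0.047 to 0.23 for Cox6c and -0.068 to 0.30 for Cox7a2, the lowest each time without melatonin replicate 4. Lengths of 1 transcript in place of all exons moved the Cox4i2 share to 0.993% with vehicle and 0.282% with melatonin, and that of Atp5g1 to between 3.77% and 5.13%. The principal transcript was added after seeing the data. Cox7a1 had 36 to 98 counts per library and did not pass, and whether depth had a part in this was not tested.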
